A study of Mus musculus with 6 samples.

Results

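The insulin-like growth factor (IGF) system was followed through 10 of the 32285 genes measured in each library. They were the ligands Igf1 and Igf2, the receptors Igf1r and Igf2r, and the binding proteins Igfbp2, Igfbp3, Igfbp4, Igfbp5, Igfbp6 and Igfbp7. Each was matched by its gene symbol, and all 10 were present in all 6 libraries. IGF1 and IGF2 are secreted growth factors that bind IGF1R, a receptor tyrosine kinase that signals through PI3K and AKT and through RAS and ERK. IGF2R has no kinase domain and carries IGF2 and mannose 6-phosphate-tagged enzymes to lysosomes. The binding proteins hold the ligands outside the cell, where they can lengthen their life or keep them from the receptor, and in pancreatic tumours fibroblasts and macrophages are known sources of IGF ligand.

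The tumours came from KPC mice, in which a Pdx1-Cretg/+ transgene recombines a KrasLSL.G12D/+ and a p53LSL.R172H/+ allele in cells of the pancreatic lineage. Vehicle mice (n = 3) were given corn oil and water. Treated mice (n = 3) received trametinib, a MEK inhibitor, at 1 mg/kg together with hydroxychloroquine, which raises lysosomal pH and blocks autophagy, at 40 mg/kg, both by mouth. All 6 carried the 3 alleles and a tumour of 4 to 7 mm on ultrasound, and the tumours were dissociated for droplet single-cell RNA sequencing 24 h after treatment; no mouse received 1 drug alone, so the drugs cannot be told apart, and the sources used here do not state ages.

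The libraries held 22996012 to 126645602 unique molecular identifiers (UMIs, single captured RNA molecules), and 37002 of 44819 cell barcodes were kept. A kept cell of a vehicle mouse had a median of 2991 to 4699 UMIs and one of a treated mouse 8373 to 11179, so depth per cell and treatment cannot be told apart and levels are given as CPM, the UMIs of a gene per 1000000 UMIs of a cell class in a mouse. Clusters were named from marker genes, with the 10 IGF genes left out of the clustering. The classes compared were tumour cells (771 to 3259 per mouse), fibroblasts (115 to 1222), endothelial cells (46 to 297), macrophages and monocytes (477 to 3184, called macrophages below), neutrophils (260 to 2628), T and NK cells (42 to 370) and B cells (20 to 805), and 7.26% of kept cells stayed unnamed. The class called tumour cells was named with markers of tumour and ductal epithelium, and whether each of its cells is malignant was not tested. The macrophage markers summed to 28339 to 50465 CPM in the vehicle macrophages and to 45571 to 58117 CPM in the treated ones. The libraries of vehicle mouse 1 and of treated mice 1 and 2 stood apart: the 7 leading bases of the barcodes of vehicle 1 were shared with another library in at most 25.9% of cases against at least 99.8% between the others, and treated 1 and 2 had the most alike tumour cells of the 15 pairs (SD of the log2 ratio 0.226, against 0.765 to 1.29). Pairs of libraries shared 0 to 24 barcodes.

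Promoters are shown for the 3 genes on which most of the results below turn: Igf1, Igfbp6 and Igf1r. Each run is 5′ to 3′ on the gene's strand, from 250 bases before to 50 bases after the start of the gene in RefSeq (build GRCm38.p6, the patch series of the mm10 build of the files). Capitals mark matches, on either strand, to 5 motifs: the GC box (GGGCGG), the AP-1 site (TGANTCA), the ETS site (CGGAAG), the TATA box (TATAAA) and the CCAAT box (CCAAT).
Igf1, chr10:87860861-87861160, + strand: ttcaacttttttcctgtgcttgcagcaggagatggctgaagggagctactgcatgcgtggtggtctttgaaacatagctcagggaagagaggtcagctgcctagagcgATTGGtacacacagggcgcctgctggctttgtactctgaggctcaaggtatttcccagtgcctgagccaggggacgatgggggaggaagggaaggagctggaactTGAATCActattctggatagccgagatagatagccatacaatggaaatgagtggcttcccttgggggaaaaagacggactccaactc
Igfbp6, chr15:102143936-102144235, + strand: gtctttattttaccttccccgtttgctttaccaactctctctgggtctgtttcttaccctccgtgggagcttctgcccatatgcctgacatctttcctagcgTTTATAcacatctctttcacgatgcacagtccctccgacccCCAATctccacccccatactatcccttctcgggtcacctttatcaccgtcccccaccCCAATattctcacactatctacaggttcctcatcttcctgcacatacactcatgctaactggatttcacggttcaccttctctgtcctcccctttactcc
Igf1r, chr7:67952007-67952306, + strand: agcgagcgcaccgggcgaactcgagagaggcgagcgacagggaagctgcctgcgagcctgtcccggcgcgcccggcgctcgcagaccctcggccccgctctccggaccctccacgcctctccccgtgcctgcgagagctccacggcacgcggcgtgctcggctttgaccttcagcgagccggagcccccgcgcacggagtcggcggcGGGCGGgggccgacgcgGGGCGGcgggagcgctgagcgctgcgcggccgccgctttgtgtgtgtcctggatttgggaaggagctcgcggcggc
The Igf1 window held 1 AP-1 and 1 CCAAT match, the Igfbp6 window 1 TATAAA and 2 CCAAT matches, and the Igf1r window 2 GC boxes and 76% G and C. Among 32851 mouse promoters of this length, 7.81% held the AP-1 letters, 37.4% CCAAT, 13.6% TATAAA, 35.7% the GC box and 16.9% the ETS letters, which none of these 3 windows held. A match is a run of letters and not evidence of binding. In the annotation of the files' genome, Igf1 lies on chromosome 10 from 87858265 to 87937042, Igfbp6 on chromosome 15 from 102144362 to 102149511 and Igf1r on chromosome 7 from 67952827 to 68233668, all protein-coding on the + strand.

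Fibroblasts were the main source of Igf1. Igf1 stood at 555, 935 and 757 CPM in the fibroblasts of vehicle mice 1, 2 and 3 and at 819, 680.3 and 385 CPM in those of treated mice 1, 2 and 3. The groups overlapped, and the lowest fibroblast value was above every value of every other class. Fibroblasts supplied 76.6%, 93.8% and 92.6% of all Igf1 UMIs of the vehicle mice and 64.7%, 55.7% and 77.5% of those of the treated mice. The class with the next highest level was the macrophage, 4.02 ± 1.41 log2 units below (mean and SD of the difference in log2(CPM + 1), higher in 6 of 6 mice; exact sign-flip test over 6 mice, two-sided p = 0.03125, the smallest it can give, and 0.117 adjusted over the 60 neighbouring pairs of classes of the 10 genes). Macrophages, endothelial cells and tumour cells followed, and macrophages were above endothelial cells in only 4 of 6 mice (adjusted p = 0.402 by the same exact test). Among fibroblast sub-clusters of at least 50 cells, Igf1 ran from 23.4 CPM in a sub-cluster led by Tagln, Sparc and Col1a1 to 2003 CPM in one led by Col3a1, Dcn and Sparc, of which 165 of 199 cells came from vehicle mouse 3.

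Igf2, the fetal ligand of an imprinted locus, was scarce and carried by few cells. It stood at 0.93, 149 and 0.96 CPM in the fibroblasts of vehicle mice 1 to 3 and at 132, 25.7 and 0.95 CPM in those of treated mice 1 to 3. A single mouse of each group made up most of its group's level, and the groups overlapped (log2 fold change -0.09 ± 1.82, standard error, adjusted p = 0.992). In vehicle mouse 2 a fibroblast sub-cluster of 83 cells, none from another mouse, held 2099 CPM, and a sub-cluster with 98 of its 161 cells from treated mouse 1 held 389 CPM. Endothelial sub-clusters led by Ccl21a and Mmrn1, genes of lymphatic vessels, held 131 and 157 CPM, against at most 6.94 CPM in the other 6 endothelial sub-clusters.

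**Figure D1:**
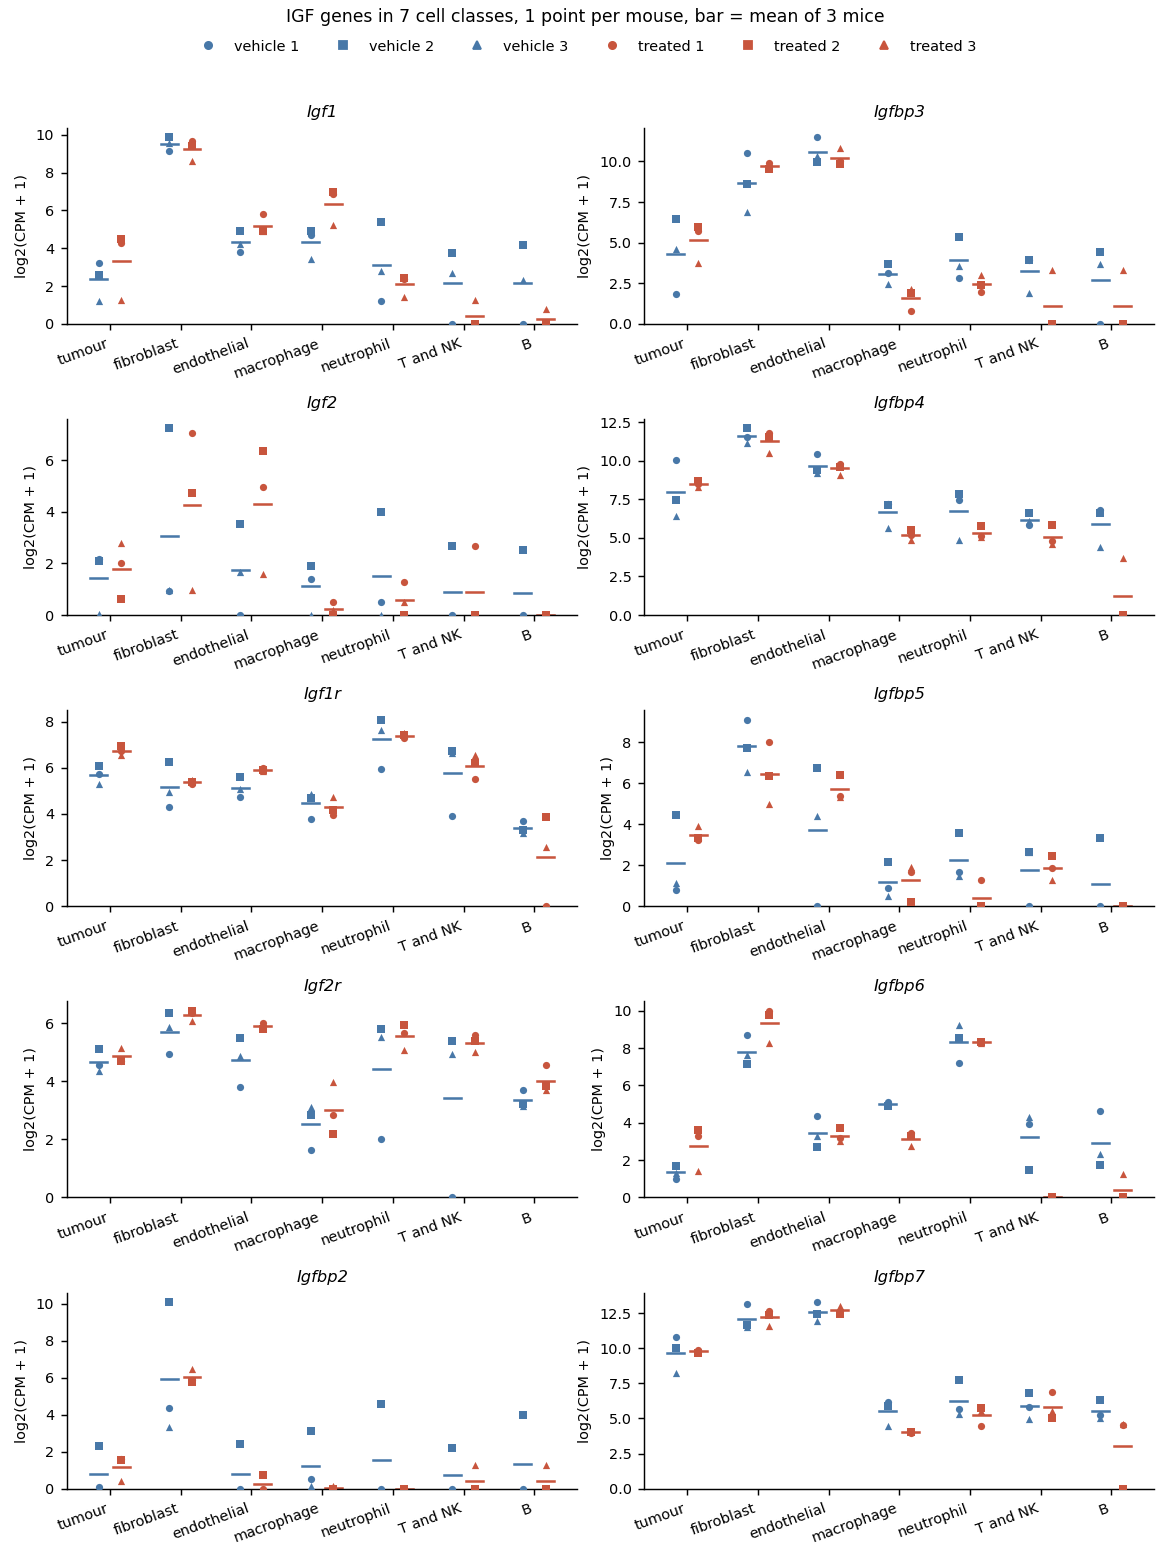
Level of the 10 IGF genes in 7 cell classes, as log2(CPM + 1) on the vertical axis, with 1 point per mouse (blue, vehicle; red, treated; the symbol marks the mouse number) and a bar at the mean of the 3 mice of a group. On the mean over the 6 mice, fibroblasts stand highest for Igf1, Igfbp2, Igfbp4 and Igfbp5, endothelial cells for Igfbp3 and Igfbp7 and neutrophils for Igf1r. For Igfbp5, fibroblasts were above endothelial cells in only 4 of 6 mice.

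The question of the comparison was which of these genes differ between the treated and the vehicle tumours, class by class. Within the classes, 0 of the 10 genes passed an adjusted p of 0.05 in edgeR's quasi-likelihood test on UMIs summed per mouse and class, with Benjamini-Hochberg adjustment over all genes of the class. The share of all tested genes that passed was 0.0% in tumour cells, fibroblasts, macrophages, neutrophils and B cells, 0.96% in endothelial cells and 0.139% in T and NK cells. At an unadjusted p under 0.05 there were 2 of 10 tested members in tumour cells (11.5% of all genes), 0 of 10 in fibroblasts (15.8%) and 2 of 9 in endothelial cells (18.4%). There were 5 of 8 in macrophages (10.6%), 3 of 6 in neutrophils (5.31%) and 1 of 4 in T and NK cells (3.82%), and in B cells no member had counts enough to be tested. DESeq2 passed 5 members in macrophages (Igf1, Igfbp2, Igfbp4, Igfbp6 and Igfbp7) and 0 in the other classes. The share of all genes that DESeq2 passed is not given here, so these counts cannot be set against it. In macrophages the groups did not overlap for 5 of the 8 tested members, beside 17.3% of all genes: 1 was higher in all treated mice (Igf1; 6.05% of the genes tested there were) and 4 were lower (Igfbp3, Igfbp4, Igfbp6 and Igfbp7; 11.3% of the genes tested there were). Fibroblasts and neutrophils had 0 such members among those tested, where 25.0% and 8.65% of all genes were of this kind. The median log2 fold change of the 8 members tested in macrophages was -0.88, beside 0.01 over all genes tested. In the other classes the members' median stayed between -0.21 and 0.12, except in neutrophils (-0.88 over 6 members, beside -0.07 for all genes).

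In macrophages Igf1 stood at 24.6, 29.4 and 9.87 CPM in vehicle mice 1 to 3 and at 117, 125 and 36.3 CPM in treated mice 1 to 3. Every treated mouse was above every vehicle mouse, treated 3 only narrowly so. The mean was 21.3 ± 10.2 CPM (SD, n = 3) against 92.8 ± 49.1 CPM (SD, n = 3), 4.54-fold on the fitted scale. The log2 fold change was 2.18 ± 0.60 (standard error) and did not pass (edgeR adjusted p = 0.255). It passed under DESeq2 (2.19, adjusted p = 0.00486) and with the replicate number as a block in edgeR (2.10, adjusted p = 0.0461). Without each mouse in turn the log2 fold change was 1.80 to 2.59 with an adjusted p of 0.166 or more; without vehicle 1 it was 2.45, and with treated 1 and 2 summed as 1 sample it was 1.95.

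The share of macrophages with an Igf1 UMI was also higher in the treated mice. With each cell thinned to 2000 UMIs it was 5.28%, 4.81% and 1.75% in vehicle mice 1 to 3 and 18.8%, 21.6% and 5.52% in treated mice 1 to 3, in 360 to 2458 macrophages per mouse. All treated values lay above all vehicle values, with treated 3 close to vehicle 1 (exact permutation test over the 10 splits, two-sided p = 0.1, the smallest that 3 against 3 mice allow). Unthinned it was 8.595%, 10.7% and 3.30% against 36.1%, 31.1% and 19.2%. T and NK cells, which should lack the gene, had an Igf1 UMI in 0% to 0.99% of thinned cells; their median depth before thinning was 1170.5 to 3360 UMIs per mouse, and that of macrophages 2652 to 12205.5. Thinned to 1000 UMIs, the macrophage shares were 4.01%, 2.95% and 0.91% against 10.3%, 13.0% and 3.72%, where treated 3 lay below vehicle 1 (exact permutation p = 0.2). Macrophages supplied 7.57%, 1.38% and 1.96% of the Igf1 UMIs of vehicle mice 1 to 3 and 12.2%, 15.97% and 17.7% of those of treated mice 1 to 3, with no overlap (exact permutation p = 0.1). Tumour cells supplied 15.02%, 1.88% and 1.87% in vehicle and 11.97%, 21.8% and 0.78% in treated mice. That was more than macrophages in vehicle 1, vehicle 2 and treated 2, and less in the other mice. A share also follows the size of the class. Treated 3 had the highest macrophage share and the lowest treated level. Macrophages held 30621961 of the 90507108 UMIs of treated 3, against 7009040 of 63968299 in treated 1 and 6378253 of 69927085 in treated 2.

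Different clusters made up the macrophages of the 2 groups. A cluster led by Ly6c2, Plac8, the immunoglobulin genes Ighg2c and Igkc and the neutrophil genes S100a8 and S100a9 (called the Ly6c2 cluster below) held 76.1%, 59.1% and 60.3% of the vehicle macrophages and 11.4%, 9.07% and 9.79% of the treated ones. Its cells were not alike between mice: of the cells of vehicle 1 there, 308 of 363 lay in a sub-cluster led by C1qa, C1qc and C1qb, and of those of vehicle 2, 885 of 964 lay in one led by H2-Aa and H2-Eb1. A further cluster, whose leading genes were Ccl5, Ctsk and Mmp9 (called the Ccl5 cluster below), held 38.2% and 53.1% of the macrophages of treated 1 and 2, and one led by Prg4, Marco and Chil3 held 56.2% of those of treated 3. Within the Ccl5 cluster, the sub-cluster led by Ctsk and Mmp9 held 36 of 39, 38 of 57 and 42 of 65 cells of vehicle mice 1 to 3 and 32 of 41 of treated 3. It held 31 of 307 cells of treated 1 and 19 of 580 of treated 2, whose other cells there lay in sub-clusters led by C1qa, C1qb and C1qc. Within the Ly6c2 cluster Igf1 stood at 20.8, 24.3 and 6.74 CPM in the vehicle and at 54.7, 34.6 and 46.3 CPM in the treated mice. In a cluster led by Retnla, Ccl8 and Cd163 it stood at 87.2, 102 and 77.3 CPM against 134, 146 and 124 CPM, and in the Ccl5 cluster at 26.9, 27.95 and 41.4 CPM against 202, 166 and 46.4 CPM. The groups did not overlap in any of these 3 clusters, the only macrophage clusters with enough cells in every mouse to be described. In the Ccl5 cluster this rests on few Igf1 molecules. Treated 3 had 43140 UMIs of all genes there, and vehicle mice 1 to 3 had 74456, 107323 and 96702. The share of all genes without overlap within these clusters is not given. Different sub-clusters make up the Ly6c2 and the Ccl5 cluster in different mice, so their values do not compare like sets of cells. The part of this in the Igf1 values was not tested. Fibroblast markers in macrophages summed to 72.9, 576 and 183 CPM in vehicle and to 71.1, 79.2 and 122 CPM in treated mice, and 0 of 11 of them had a higher mean in the treated mice.

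**Figure D2:**
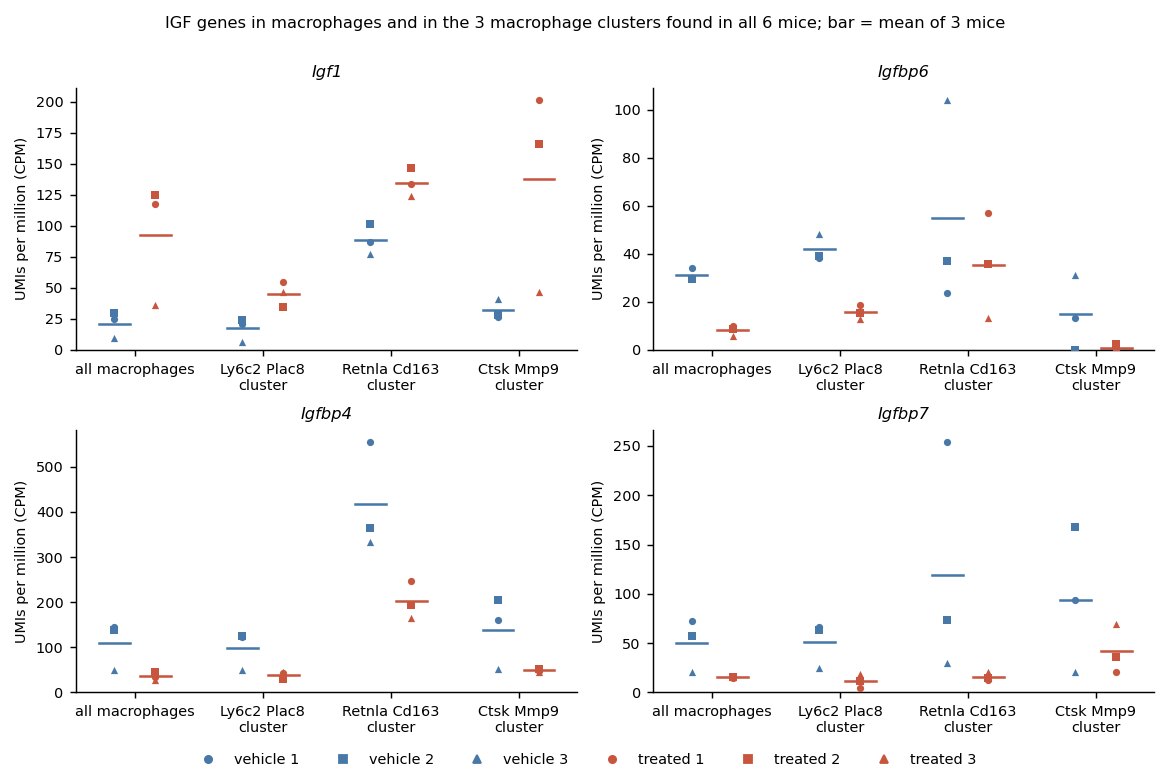
Igf1, Igfbp6, Igfbp4 and Igfbp7 in CPM (vertical axis) in all macrophages and in 3 macrophage clusters labelled by some of their leading genes (Ctsk Mmp9 marks the Ccl5 cluster, in which few cells of treated 1 and 2 lie in the Ctsk and Mmp9 sub-cluster), with 1 point per mouse and a bar at the mean of 3 mice. Igf1 is higher in the treated mice in all 4 columns, with all macrophages at 9.87 to 29.4 CPM in vehicle and 36.3 to 125 CPM in treated mice, and in all macrophages and in the Ly6c2 Plac8 cluster the 3 binding proteins are lower in the treated mice. In the Ccl5 cluster the point of treated 3 rests on few molecules (41 cells with 43140 UMIs of all genes).

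The receptor Igf1r was carried mostly by tumour cells, which held 60.1% to 83.7% of its UMIs in the 6 mice. Its level in tumour cells was 51.6, 65.9 and 38.7 CPM in vehicle mice 1 to 3 and 105, 121 and 94.0 CPM in treated mice 1 to 3. Each treated mouse was above each vehicle mouse, as were 19.9% of all genes tested in tumour cells. The log2 fold change was 0.72 ± 0.24 (standard error; edgeR adjusted p = 0.421). The tumour cells of different mice lay in different clusters: 1 cluster held 95.8% of those of vehicle 1, another 81.9% of those of vehicle 3, yet another 68.1% and 71.6% of those of treated 1 and 2, and the most filled one of treated 3 held 48.3%. Within vehicle 2 alone the clusters ranged from 17.2 to 107 CPM of Igf1r, apart from 1 of only 35 cells and 47623 UMIs, which held 0. The part of these cluster differences in the difference between the groups was not tested. Endothelial cells showed the same order, at 26.0, 46.9 and 33.0 CPM against 62.8, 59.5 and 56.6 CPM (0.55 ± 0.21, adjusted p = 0.203), in a class where 17.3% of the genes tested were higher in all treated mice. In tumour cells thinned to 2000 UMIs, 10.9%, 10.6% and 7.88% of vehicle cells and 16.4%, 19.7% and 15.6% of treated cells had an Igf1r UMI (exact permutation p = 0.1, two-sided). Unthinned the shares were 47.5%, 41.9% and 55.9% against 72.7%, 70.9% and 65.3%. B cells, the class with the lowest level, had an Igf1r UMI in 0% to 8.33% of thinned cells, over 12 to 369 cells; the median depth was 1207 to 3412 UMIs in B cells and 11555 to 34495 in tumour cells.

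Neutrophils, not tumour cells, had the highest Igf1r level per UMI. It was 60.8, 271 and 200 CPM in vehicle mice 1 to 3 and 153, 168 and 183 CPM in treated mice 1 to 3. Neutrophils were above tumour cells in 6 of 6 mice (1.09 ± 0.88 log2 units, SD; exact sign-flip p = 0.03125, adjusted p = 0.117). Macrophages, another myeloid class, stood near the bottom at 12.9 to 28.3 CPM, and B cells lowest at 0 to 13.4 CPM. The neutrophil class differed between mice in its clusters and marker sums. One cluster held 94.3% of it in vehicle 2 and 90.8% to 95.6% in the treated mice. Another held 59.3% in vehicle 1, and yet another 72.0% in vehicle 3. The neutrophil markers of the class summed to 186931, 18940 and 100868 CPM in vehicle mice 1 to 3 and to 60375, 33490 and 126782 CPM in treated mice 1 to 3. Tumour markers in neutrophils summed to 7934, 3472 and 2752 CPM against 1994, 444 and 4799 CPM. The part of these differences in the Igf1r level was not tested.

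Igf2r, the lysosome-bound receptor, was spread over more classes. Fibroblasts stood highest, at 29.7, 80.3 and 57.2 CPM in vehicle mice 1 to 3 and 81.4, 85.7 and 67.3 CPM in treated mice 1 to 3, and were above endothelial cells in 6 of 6 mice (0.69 ± 0.36 log2 units; adjusted p = 0.117 by the exact sign-flip test). In endothelial cells it was 13.0, 44.3 and 28.7 CPM against 64.0, 55.0 and 58.1 CPM, again with every treated mouse above every vehicle mouse (0.71 ± 0.25, edgeR adjusted p = 0.172). The response of endothelial cells minus that of fibroblasts was 0.63 ± 0.22 for Igf2r (adjusted p = 0.396) and 0.87 ± 0.27 for Igf1r (adjusted p = 0.318), and neither difference passed. In the Fabp4 and Plvap endothelial cluster that holds most of the class, both receptors were again higher in all treated mice, Igf2r at 13.0, 50.9 and 29.7 CPM against 78.4, 68.6 and 59.5 CPM.

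Igfbp6, a binding protein that prefers IGF2, differed between the groups with opposite signs in fibroblasts and macrophages. In macrophages it stood at 34.1, 29.4 and 30.3 CPM in vehicle mice 1 to 3 and at 9.84, 8.78 and 5.68 CPM in treated mice 1 to 3. In fibroblasts it stood at 409, 142 and 195 CPM against 1023, 881 and 305 CPM. The macrophage groups were far apart, while in fibroblasts treated 3 lay below vehicle 1. The log2 fold change was -1.94 ± 0.30 in macrophages (edgeR adjusted p = 0.0986) and 1.36 ± 0.60 in fibroblasts (adjusted p = 0.328), neither of which passed alone; the fibroblast value was 1.04 to 2.03 without each mouse in turn, the highest without vehicle 1. The fibroblasts of the mice also fell into different clusters: one led by Calca, Serpinb2 and Col11a1 held 4.83% to 66.2% of them per mouse, and within it Igfbp6 overlapped, at 384, 110 and 75.9 CPM against 333, 279 and 268 CPM. In a cluster led by Tnxb, Clec3b and Ly6c1 it was 259 and 309 CPM in vehicle 2 and 3 and 1709, 1522 and 532 CPM in the treated mice, and in one led by Wif1 and Cacna1b it was 119 CPM in vehicle 2 and 735 and 680 CPM in treated 1 and 2. The other mice had too few cells in these 2 clusters for a value. A cluster led by Lars2, S100a8 (a neutrophil gene) and Hba-a1 (a haemoglobin gene) held 29.6% of the fibroblasts of vehicle 1 and 1.73% to 18.0% of the others. Mesothelial markers in fibroblasts summed to 70.6, 76.4 and 79.6 CPM in vehicle and 135, 135 and 277 CPM in treated mice, with 7 of 8 higher on average in treated mice, and their part in the Igfbp6 values was not tested.

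The difference between these 2 responses did pass. The fibroblast response exceeded the macrophage response by 3.38 ± 0.35 log2 units (standard error; edgeR class by treatment term, adjusted p = 0.0296), the 1 of 10 members to pass in this comparison, in which 0.051% of 13732 genes did; at an unadjusted p under 0.05 there were 6 of 10 members (10.2% of genes). Differences were tested for 4 pairs of classes, and 0 members passed in the other 3, where 0.0% (endothelial minus fibroblast), 0.00652% (tumour minus fibroblast) and 0.0% (tumour minus macrophage) of all genes did. At an unadjusted p under 0.05 these held 4, 1 and 5 of 10 members, beside 9.51%, 7.83% and 11.8% of genes. The size of the difference held, at 3.11 to 3.65 without each mouse in turn, but the call did not: the adjusted p was 0.0824, 0.0913 and 0.108 without vehicle 1, 2 or 3, 0.126 and 0.109 without treated 1 or 2, and 0.00934 without treated 3. With another scaling (RLE size factors) it was 0.0538. Treated 1 and 2, which had the most alike tumour cells, entered as separate mice. A fit with these 2 summed as 1 sample was not run for differences between classes. For Igf1 the same difference had the opposite sign, -2.53 ± 0.51, and did not pass (adjusted p = 0.213). The contrast of Igfbp6 with macrophages was not particular to fibroblasts. Its response in tumour cells exceeded that in macrophages by 3.44 ± 0.68, which did not pass (edgeR adjusted p = 0.256). Tumour cells minus fibroblasts gave 0.03 ± 0.69 (edgeR adjusted p = 0.998). Its level in tumour cells was low, at 1.00, 2.24 and 1.52 CPM in vehicle and 8.95, 11.4 and 1.63 CPM in treated mice.

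Neutrophils were the other carriers of Igfbp6, at 146, 375 and 608 CPM in vehicle mice 1 to 3 and 319, 318 and 308 CPM in treated mice 1 to 3. The vehicle values surrounded the treated values. With cells thinned to 1000 UMIs, 22.8%, 20.8% and 33.9% of vehicle neutrophils and 24.5%, 24.6% and 27.3% of treated neutrophils had an Igfbp6 UMI, against 0% to 1.38% of T and NK cells. Unthinned it was 31.5%, 24.5% and 40.1% against 32.2%, 30.4% and 44.2% of neutrophils, whose median depth was 809 to 2141 UMIs. Neutrophils supplied 38.4%, 8.86% and 46.3% of the Igfbp6 UMIs of vehicle mice 1 to 3 and 2.65%, 2.72% and 9.49% of those of treated mice 1 to 3. Neutrophil markers in macrophages summed to 2785, 242 and 414 CPM in vehicle and to 163, 126 and 275 CPM in treated mice, and their part in the macrophage values was not tested. Macrophages thinned to 1000 UMIs had an Igfbp6 UMI in 3.77%, 2.75% and 3.93% of vehicle and 1.03%, 0.60% and 0.57% of treated cells, or unthinned 13.0%, 12.6% and 9.74% against 5.85%, 4.49% and 5.59%. Within the Ly6c2 macrophage cluster Igfbp6 stood at 38.5, 39.0 and 48.3 CPM against 18.8, 15.6 and 12.8 CPM, with no overlap. S100a8 and S100a9 are among the leading genes of that cluster and its sub-clusters differ between mice, as above (vehicle 3 had 965 of 1919 cells in one led by Lyz2, Cd74 and H2-Aa), and the part of either in these values was not tested. In the Retnla and Cd163 cluster the groups overlapped.

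**Figure D3:**
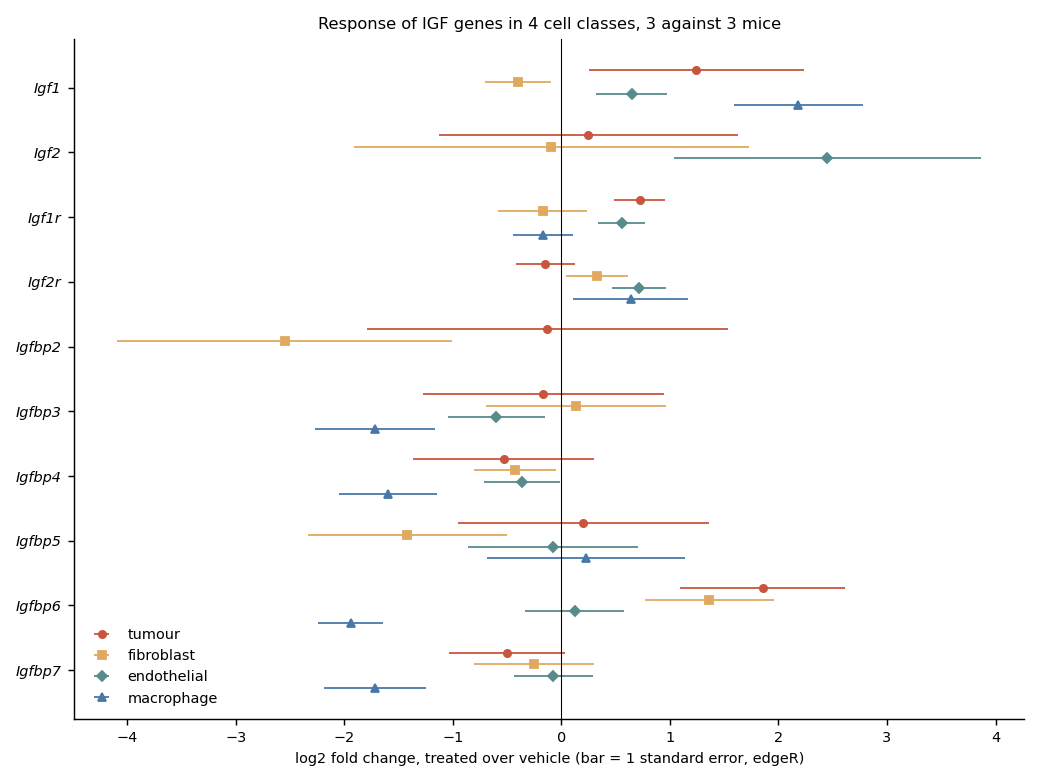
Log2 fold change, treated over vehicle, of each IGF gene in tumour cells, fibroblasts, endothelial cells and macrophages (horizontal axis; symbols mark the class, bars are 1 standard error from edgeR, 3 against 3 mice). Igfbp6 lies at 1.36 in fibroblasts and at -1.94 in macrophages, and Igf1 at -0.40 and 2.18.

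Igfbp4 and Igfbp7 were also lower in the macrophages of every treated mouse, and neither passed the edgeR test. Igfbp4, the binding protein cleaved by the protease PAPPA, stood at 144, 138 and 48.9 CPM in vehicle macrophages and at 35.2, 45.3 and 28.6 CPM in treated ones (-1.60 ± 0.45, edgeR adjusted p = 0.260, DESeq2 adjusted p = 0.0254). Igfbp7, which binds IGFs weakly and is laid down around vessels, stood at 72.9, 57.5 and 20.6 CPM against 14.6, 15.4 and 16.2 CPM (-1.71 ± 0.47, edgeR adjusted p = 0.247, DESeq2 adjusted p = 0.0194). Vehicle 3 lay close to the treated mice for both genes. Igfbp3 was near the floor at 4.55 to 11.6 CPM against 0.71 to 3.43 CPM (-1.72 ± 0.55, adjusted p = 0.313), and with cells called doublets kept its log2 fold change was -0.07 (adjusted p = 0.994).

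The same 3 binding proteins were the members with an unadjusted p under 0.05 in neutrophils, and the groups overlapped for each. Igfbp4 there was at 175, 224 and 28.5 CPM in vehicle mice 1 to 3 and at 34.0, 54.4 and 31.8 CPM in treated mice 1 to 3 (-2.06 ± 0.70, edgeR adjusted p = 0.810). Vehicle 3 was the lowest of the 6 mice for this gene. Igfbp7 was at 49.2, 212 and 39.5 CPM against 21.3, 52.2 and 44.7 CPM (-1.33 ± 0.58, adjusted p = 0.810). Igfbp3 was at 5.99, 40.4 and 10.7 CPM against 2.84, 4.35 and 6.88 CPM (-1.78 ± 0.66, adjusted p = 0.810), from 2 to 33 UMIs per mouse. Vehicle 2 was the highest mouse for all 3. Fibroblast markers in neutrophils summed to 71.0, 1847 and 388 CPM against 118, 194 and 353 CPM, with 0 of 11 higher on average in treated mice. As with the tumour markers in neutrophils given above, their part in these values was not tested.

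Lymphocytes also held Igfbp4, apart from the B cells of treated mice 1 and 2. It was 56.5, 95.6 and 67.2 CPM in vehicle T and NK cells and 26.5, 56.6 and 23.7 CPM in treated ones, and 108, 98.4 and 19.8 CPM against 0, 0 and 11.9 CPM in B cells. The T and NK groups overlapped (-1.18 ± 0.38, edgeR adjusted p = 0.734). The B cell groups did not overlap and were not tested, and the B cells of treated mice 1 and 2 numbered only 25 and 20. Tumour markers in macrophages summed to 306, 798 and 275 CPM in vehicle and to 84.9, 76.4 and 187 CPM in treated mice, with 0 of 16 higher on average in treated mice, and the part of RNA from tumour cells and fibroblasts in these macrophage values was not tested. In the Ly6c2 cluster both genes were lower in every treated mouse, Igfbp4 at 122, 126 and 49.6 CPM against 42.2, 29.4 and 45.2 CPM. In the Retnla and Cd163 cluster, the highest of the 3 for Igfbp4, it stood at 555, 365 and 333 CPM against 248, 194 and 164 CPM, also without overlap.

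The binding proteins had different main carriers. Igfbp3, the main carrier of IGF in serum, stood at 2887, 988 and 1313 CPM in vehicle endothelial cells and at 1031, 910.5 and 1785 CPM in treated ones, and Igfbp7 at 10096, 5660.1 and 3868 CPM against 6496, 5604 and 8204 CPM. The groups overlapped for both. Endothelial cells were above fibroblasts in 6 of 6 mice for Igfbp3 (1.19 ± 1.21 log2 units) and for Igfbp7 (0.48 ± 0.54), with an adjusted p of 0.117 for each by the exact sign-flip test. Igfbp3 marked the blood-vessel sub-clusters unevenly, from 177 to 2568 CPM, and was 10.0 and 14.7 CPM in the Ccl21a and Mmrn1 sub-clusters. By number of UMIs, tumour cells were the larger source of Igfbp7 in every mouse but treated 3, at 33.7% to 66.2% per mouse against 26.0% to 41.3% from fibroblasts. Pericytes, too few to test at 14 to 59 cells per mouse, held Igfbp7 at 4046 to 8381 CPM.

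Igfbp4 was highest in fibroblasts, at 2918, 4378 and 2263 CPM in vehicle mice 1 to 3 and 3553, 2913 and 1421 CPM in treated mice 1 to 3. In tumour cells vehicle 1 stood apart, at 1047 CPM against 82.7 to 403 CPM in the other 5 mice, and tumour cells there supplied 76.8% of the Igfbp4 UMIs. Igfbp2 was abundant in the fibroblasts of only 1 mouse, at 19.5, 1104 and 9.29 CPM in vehicle and 57.9, 53.8 and 88.7 CPM in treated mice. Vehicle 2 lay far above the other 5 mice, and 74.8% of its fibroblasts were in a cluster led by Wif1, Cacna1b, Tac2 and Crabp1 that held 1.73% to 28.1% of the fibroblasts of the other mice. The fitted log2 fold change of Igfbp2 in fibroblasts was -2.55 ± 1.54 (adjusted p = 0.453).

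**Figure D4:**
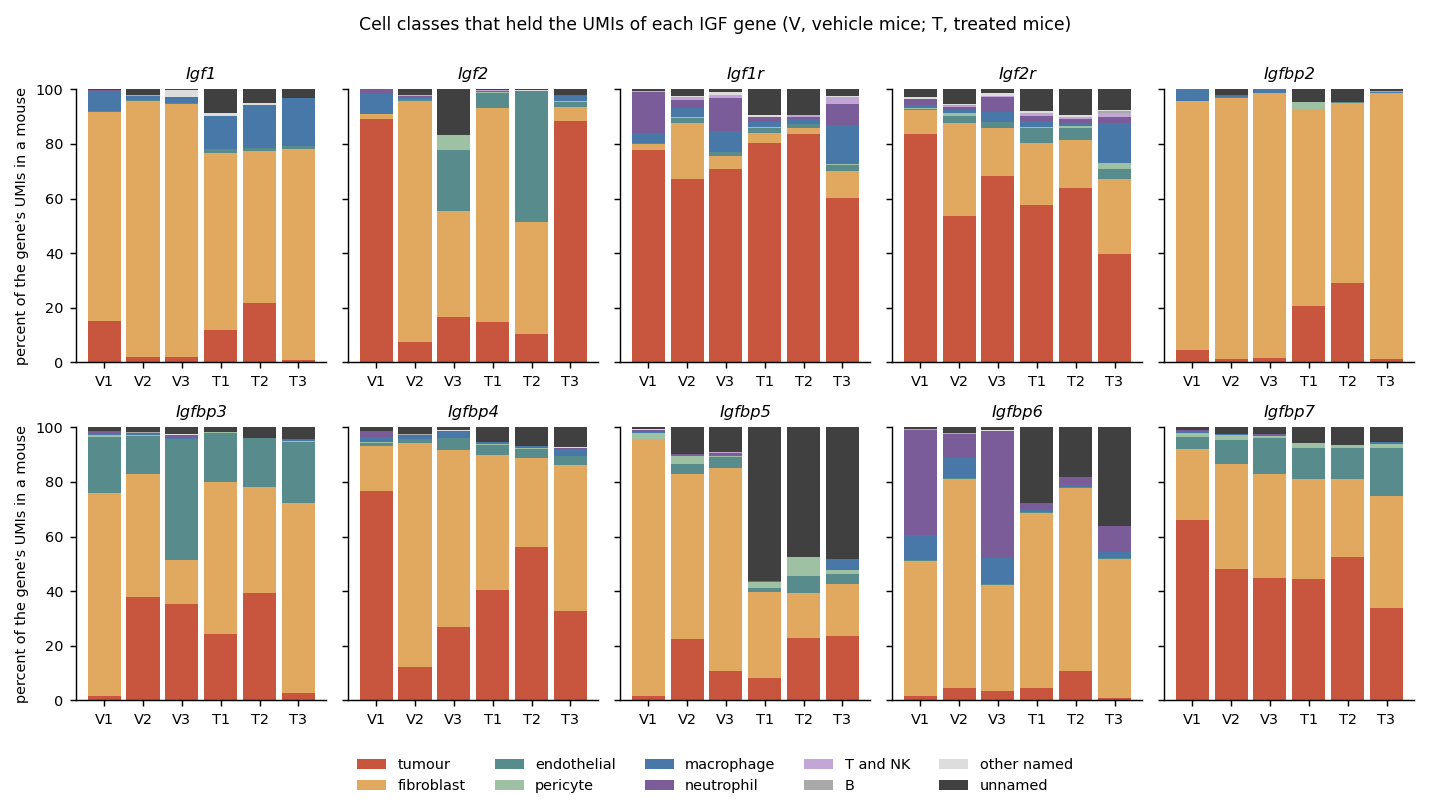
Percent of each gene's UMIs in a mouse (vertical axis) that came from each cell class, with 1 stacked bar per mouse (V1 to V3 vehicle, T1 to T3 treated). Fibroblasts hold most of the Igf1 and Igfbp2 UMIs, tumour cells most of the Igf1r UMIs, and unnamed cells 47.5% to 56.4% of the Igfbp5 UMIs of treated mice against 0.47% to 9.59% in vehicle mice.

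Igfbp5, found in fibroblasts and mural cells, came from different cells in the groups, although 3 against 3 mice cannot pass the test of a share. Its level in fibroblasts was 555, 212 and 92.9 CPM in vehicle mice 1 to 3 and 263, 80.8 and 31.1 CPM in treated mice 1 to 3, with overlap (-1.42 ± 0.92, edgeR adjusted p = 0.478). The few pericytes, 14 to 59 cells per mouse, held 174, 459 and 17.7 CPM in vehicle and 495, 814 and 73.9 CPM in treated mice. Fibroblasts supplied 94.3%, 60.3% and 74.4% of the Igfbp5 UMIs of vehicle mice and 31.5%, 16.3% and 19.004% of those of treated mice, with no overlap (exact permutation p = 0.1). Unnamed cells supplied 0.47%, 9.59% and 9.08% against 56.4%, 47.5% and 48.1%. Most of that came from 1 unnamed sub-cluster of 74 cells with a median of 27408 UMIs, of which 73 cells came from treated mice (19, 13 and 41) and 1 from a vehicle mouse. It held at least 50 CPM of 7 of 8 mesothelial markers, Upk3b among them, and of 9 of 11 fibroblast markers, and was left without a name. Of the UMIs of a treated mouse it held 69.5% to 95.8% for the mesothelial markers Upk3b, Lrrn4, Upk1b and Muc16. For Gpm6a and Nkain4 it held 48.8% to 71.7%, and for Wt1 11.4% to 19.2%. Whether these cells are mesothelial was not tested. The Igfbp5 level of this sub-cluster was 5140.2, 3125 and 458 CPM and its Igfbp6 level 4751, 3229 and 1741 CPM in treated mice 1 to 3.

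Summed over all kept cells of a tumour, Igfbp6 was the only member whose groups did not overlap, among 10 members of which 0 passed (0.0% of 17486 genes passed; 1 member and 10.9% of genes had an unadjusted p under 0.05; 19.4% were higher in all treated mice). It stood at 41.1, 31.3 and 33.2 CPM in vehicle mice 1 to 3 and at 133, 76.9 and 83.4 CPM in treated mice 1 to 3 (1.16 ± 0.30, edgeR adjusted p = 0.390). Without the 74 cells it was 97.6, 63.8 and 54.7 CPM in treated mice, still above the vehicle mice, and the log2 fold change was 0.72 ± 0.29 (adjusted p = 0.462). In such whole-tumour sums a change in the number of cells of a class and a change in the RNA per cell cannot be told apart. Igfbp5 was 29.3, 59.5 and 8.22 CPM against 69.5, 28.9 and 22.8 CPM, and 30.9, 16.04 and 15.3 CPM in treated mice without those cells.

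**Figure D5:**
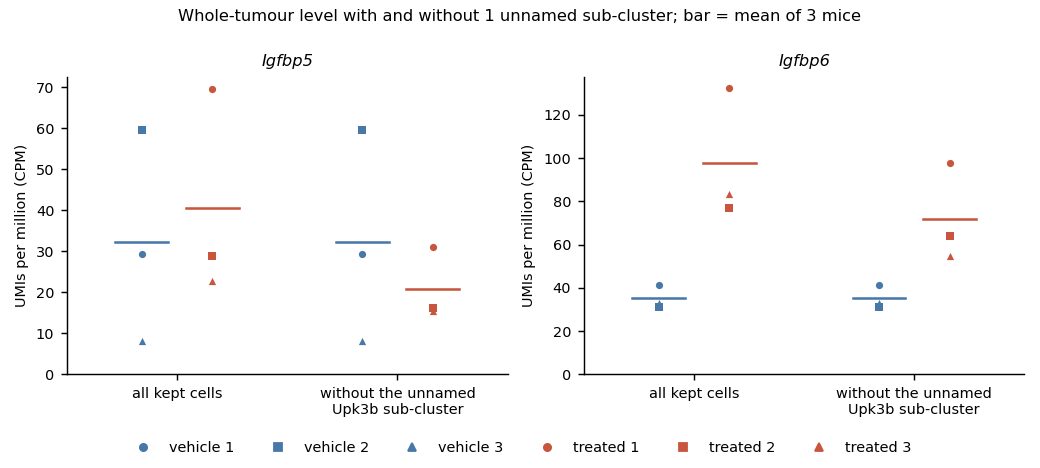
Igfbp5 and Igfbp6 in CPM over all kept cells of a tumour (vertical axis), with all cells and without the unnamed Upk3b sub-cluster, 1 point per mouse and a bar at the mean of 3 mice. Igfbp6 keeps the treated mice (54.7 to 97.6 CPM) above the vehicle mice (31.3 to 41.1 CPM) without that sub-cluster.

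A list of 24 further genes of the pathway (other receptors and adaptors, PI3K and AKT genes, FOXO factors, IGF2 mRNA-binding proteins, H19, and the proteases and stanniocalcins that act on binding proteins) was read the same way. In each class and over all cells 0 list genes passed in either direction by edgeR. At an unadjusted p under 0.05 there were 2 of 20 tested list genes in tumour cells (11.5% of all genes), 4 of 20 in fibroblasts (15.8%) and 2 of 14 in endothelial cells (18.4%). Macrophages had 3 of 14 (10.6%), neutrophils 0 of 9 (5.31%), T and NK cells 0 of 8 (3.82%) and all kept cells 3 of 22 (10.9%). B cells had 0 of 5, and the share of all genes there is not given. In fibroblasts 14 of 20 tested list genes were above 0 and 6 below, with a median log2 fold change of 0.26 beside -0.00068 over all genes. The 2 list genes with the highest mean level there were Htra1, a secreted protease that cleaves binding proteins, and H19, the imprinted RNA beside Igf2. Htra1 stood at 131, 74.6 and 117 CPM in vehicle fibroblasts and at 425, 342 and 378 CPM in treated ones. All treated mice were well above all vehicle mice, as were 19.2% of the genes tested (1.65 ± 0.29, edgeR adjusted p = 0.172). H19 overlapped, at 45.5, 454 and 38.8 CPM against 314, 105 and 117 CPM.

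The other classes gave list medians of 0.15 in tumour cells (20 tested), 0.12 in endothelial cells (14) and 0.22 in macrophages (14). The most abundant list genes were Akt1, a kinase downstream of PI3K, and Grb2, an adaptor, in tumour cells, the insulin receptor Insr and Akt1 in endothelial cells, and Grb2 with Pik3r1, the regulatory subunit of PI3K, in macrophages. Akt1 in tumour cells overlapped, at 113, 119 and 152 CPM against 135, 146 and 152 CPM. Insr in endothelial cells was 240.1, 228 and 193 CPM against 247, 248 and 353 CPM, higher in every treated mouse by a small margin (0.28 ± 0.23, adjusted p = 0.560). Pik3r1 in macrophages was 29.98, 88.2 and 106 CPM against 148, 182 and 133 CPM, again without overlap (1.13 ± 0.37, adjusted p = 0.324).

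Across the 42 sums of 7 classes and 6 mice, the genes whose log2(CPM + 1) was most like that of a member were as follows. For Igf1 they were Colec12, Il11ra1 and Gas6 (Pearson r = 0.894, 0.892 and 0.882), for Igfbp3 Rhoj, Prss23 and Col4a2 (0.952, 0.942 and 0.939) and for Igfbp2 Hand2os1, Hand2 and Adamts2 (0.932, 0.931 and 0.916). Igf2 was most alike H19 (0.745) and Igfbp6 most alike Gpc3 and Pi16 (0.878 and 0.868). For Igf1r they were Gclm, Fam110a and Bcl2l1 (0.772, 0.770 and 0.768). Among the members, Igfbp3, Igfbp4 and Igfbp7 were the most alike (0.796 to 0.896 for the 3 pairs), and Igf1 and Igf1r were nearly unrelated (0.092). These correlations describe sums that share mice, libraries and depth, and carry no test.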

How the data were processed

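Single-cell RNA sequencing was read from 6 KPC pancreatic tumours. The deposited files hold unnormalized UMI counts, which per the submitters' processing notes were made with Cell Ranger 5.0.1 on the mm10 build. Barcodes below 500 UMIs or 250 genes, or above 20% mitochondrial UMIs, were dropped, which left 39928. The cells with the highest Scrublet scores, as many as a doublet rate of 0.8% per 1000 barcodes gives (2926), were removed as doublets. Cells were clustered with scanpy 1.11.5 on 2000 variable genes without the IGF and pathway genes (34 clusters, 212 sub-clusters). Sub-clusters were named with at least 3 markers from 17 lists, and 7 were left unnamed by hand.

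UMI counts were summed per mouse and class with at least 20 cells in all mice and tested with edgeR 4.0.16 (TMM, quasi-likelihood, two-sided, Benjamini-Hochberg over all genes of a class at 0.05), and standard errors are the log2 fold change over the square root of F. Differences between classes used a class by treatment term with mouse as covariate. DESeq2 1.42.0 was an alternative, and the closing section gives the effect of the alternatives. The edgeR test was also run on simulated counts, drawn around a common mean per class with a fixed spread. The real mice differ in their clusters, so that run does not show how the test behaves on these data. Labels do not say whether littermates were used, so whether the mice are independent of each other is not known. The edgeR p-values set a difference between groups against the spread between these mice. Precision rests on 3 mice per group, and the intervals of shares of cells were not used.

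The 10 IGF genes and the gene and marker lists were chosen with earlier results of these data known. Genes named beyond them follow a rule: list genes past the test or, where none passed, the 2 with the highest mean CPM, and the 3 genes most like each IGF gene in log2(CPM + 1) among genes with a mean of at least 10 CPM.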

Additional observations from a re-analysis of the deposited data

Results flagged for a closer look

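The difference between the Igfbp6 responses of fibroblasts and macrophages, 3.38 ± 0.35 log2 units (standard error), is listed because the test of the difference between 2 classes passed (edgeR class by treatment term, adjusted p = 0.0296). Igfbp6 was lower in the macrophages of 3 of 3 treated mice than in any vehicle mouse, and the fibroblast groups overlapped. The clusters that made up both classes differed between mice, and the part of this in the difference was not tested.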

How the results depend on the processing

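Of 461 alternative values for 48 results, 436 were scored as the same and 13 as moved. Counts and shares of UMIs could only be scored in these 2 ways. Direction and side of the threshold were both scored only for 169 values of single genes. Of these, 0 changed sign, 157 kept their side, 6 passed where the main value had not, and 6 no longer passed. Their size was not scored, so a much smaller value of the same sign counted as the same. Members past 0.05 in macrophages numbered 0 as reported, 1 with no filter on low counts (Igfbp6) and 5 by DESeq2; with no filter there was also 1 in T and NK cells (Igfbp6) and 1 in B cells (Igfbp4, log2 fold change -2.83, edgeR adjusted p = 0.00407). For endothelial cells minus fibroblasts the count was 2 with no filter and 0 to 1 without each mouse in turn (1 without treated 3, Igfbp6). For fibroblasts minus macrophages it was 0 with RLE size factors and 0 to 1 without each mouse, and for tumour cells minus macrophages 0 to 1 (1 without treated 3, Igfbp6). The cause was not tested. The labels give both groups the numbers 1 to 3. Deviations of same-numbered mice correlated at 0.050, 0.112 and 0.094 in macrophages, and no class had all 3 correlations above 0.1, so the numbers were not read as pairs; in macrophages, 6 of 6 mice correlated best with their own number. With the replicate block, 1 member passed in macrophages (Igf1). The shares of all genes that passed by DESeq2, with no filter or with the replicate block are not given. The counts of members under these alternatives therefore have no background beside them. Of 60 pairs of classes next to each other in the order of a gene, 0 passed an adjusted p of 0.05, and 16 were at the smallest p that the exact sign-flip test gives with 6 mice, 0.03125. The leading class was kept for 9 of 10 genes without treated 1 and for 10 of 10 without each other mouse. The values with the unnamed Upk3b cells left out, and those with unnamed cells added to tumour cells, were chosen after seeing the data.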
